A study of Mus musculus with 24 samples.

Results

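*Ruminococcus flavefaciens* given alone was compared with duloxetine given alone in the medial prefrontal cortex (mPFC), with 6 mice per group, that is, 12 of the 24 mice whose RNA was sequenced. The members are given by their labels, as the 6 mice labelled with the bacterium (7_2, 8_3, 8_4, 9_1, 9_2 and 9_3) and the 6 labelled with the drug (5_1, 5_3, 5_4, 6_1, 6_2 and 6_3). All 4 groups of the study were BALB/C mice of postnatal week 11, male and of the OlaHsd substrain according to the methods, which also give a reversed light cycle and name no stress protocol. The duloxetine group received the drug by daily intraperitoneal injection and, according to the methods, PBS by gavage. The *R. flavefaciens* group received living bacteria repeatedly by gavage and, in the study's description, vehicle in place of the drug. The 6 controls are labelled no treatment, whereas the methods give control groups PBS by injection and by gavage. Which of these holds for the control libraries is not stated in the labels. The combined group received the drug and the bacteria. The methods give the control group of the drug experiments a matching volume of PBS, and injections of drug or PBS on days of behavioral tests. Whether the *R. flavefaciens* group of these libraries was injected with vehicle daily is not spelled out in the sources used here. Controls and combined mice are on neither side of the comparison, but they enter the estimate of the spread between mice and so bear on which genes were called. Tissue was punched from a slice of frontal brain, so each library holds all cell types of the punch. The hour of death, the time since the last injection and the cage of each mouse are not given in the sources used here. No first label number (5 and 6 against 7, 8 and 9) occurs in both groups, so whatever that number stands for cannot be told apart from the treatment.

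Duloxetine blocks the reuptake of serotonin and norepinephrine, and lasting exposure to such drugs is known to alter monoamine receptors in cortex. *R. flavefaciens* is an anaerobic, fiber-degrading bacterium of the rumen and the large intestine, where it breaks down plant cell walls. In cortical neurons, synaptic activity turns on immediate early genes within minutes through the ERK and cAMP pathways, and some clock genes respond to the same pathways besides cycling over the day.

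The recovered reads, that is, the normalized counts turned back into whole reads, ranged from 12811413 to 14775494 per mouse in the *R. flavefaciens* group (median 13943370) and from 13965066 to 14938209 in the duloxetine group (median 14536037). The difference in depth did not pass an exact permutation test (two-sided, p = 0.121, n = 6 per group). All 8 excitatory neuron markers, among them *Camk2a* and *Tbr1*, were detected in every mouse, with a sum between 96100 and 114000 normalized counts over the 12 mice, so the defining markers of the labelled tissue were present. A pair of *R. flavefaciens* libraries held the most extreme levels of several lists. Mouse 8_4 had the highest level of the striatum markers, with a mean log2 deviation from the 24-mouse mean of 1.49, against -0.28 to 0.33 in the other 5. Its *Adora2a*, the adenosine receptor of indirect-pathway striatal neurons, stood at 393 normalized counts, where the other 11 mice had 24.4 to 100.54. It also held 657 normalized counts of *Ttr*, the choroid plexus transcript, which was at or below 68.6 in the other 11. Mouse 9_3 had the highest level of nuclear complex IV subunits (0.47) and the lowest of voltage-gated sodium, calcium and HCN channels (-0.34). Neither level of 9_3 was flagged by the outlier test given further below, and mouse 7_2 came next for complex IV (0.25). Counts of gene lists are therefore also given without these mice where they moved, as an alternative chosen after seeing the data. Without mouse 9_3, 5.11 percent of all genes were higher and 5.37 percent lower at an unadjusted p under 0.05, and without both mice 4.79 and 5.59 percent. In tissue such as this, fewer cells of a type and less RNA per cell cannot be told apart.

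Few genes passed the adjusted threshold in limma, most with small fold changes. Of 14974 genes tested, 18 passed an adjusted p-value of 0.05 (limma, Benjamini-Hochberg; 0.12 percent of the genes tested), 12 of them higher after *R. flavefaciens* (0.0801 percent) and 6 lower (0.0401 percent). Their absolute log2 fold changes, *R. flavefaciens* minus duloxetine on log2(normalized count + 1), lay between 0.24 and 1.27. The higher genes were *Cry1*, *Dbp*, *Phlda1*, *Jmjd6*, *Coq10b*, *Max*, *Spry2*, *Adrb1*, *Atf4*, *Tdrp*, *Sdf2* and *Npas4*. The lower ones were *Pcdhb16*, *Vps37a*, *Xrn1*, *Cntnap5c*, *Gpatch8* and the long intergenic RNA *AC165080.4*. For 16 of the 18 genes the 6 mice of each group did not overlap. Over all genes the *R. flavefaciens* mice lay above every duloxetine mouse for 0.581 percent and below for 0.421 percent. The 18 genes were picked by p-value on the same mice, so their separation is no separate evidence. Below the threshold the shift was broader, with 1180 genes higher (7.88 percent) and 1269 lower (8.47 percent) at an unadjusted p under 0.05. The median log2 fold change of all genes was -0.0043.

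**Figure D1:**
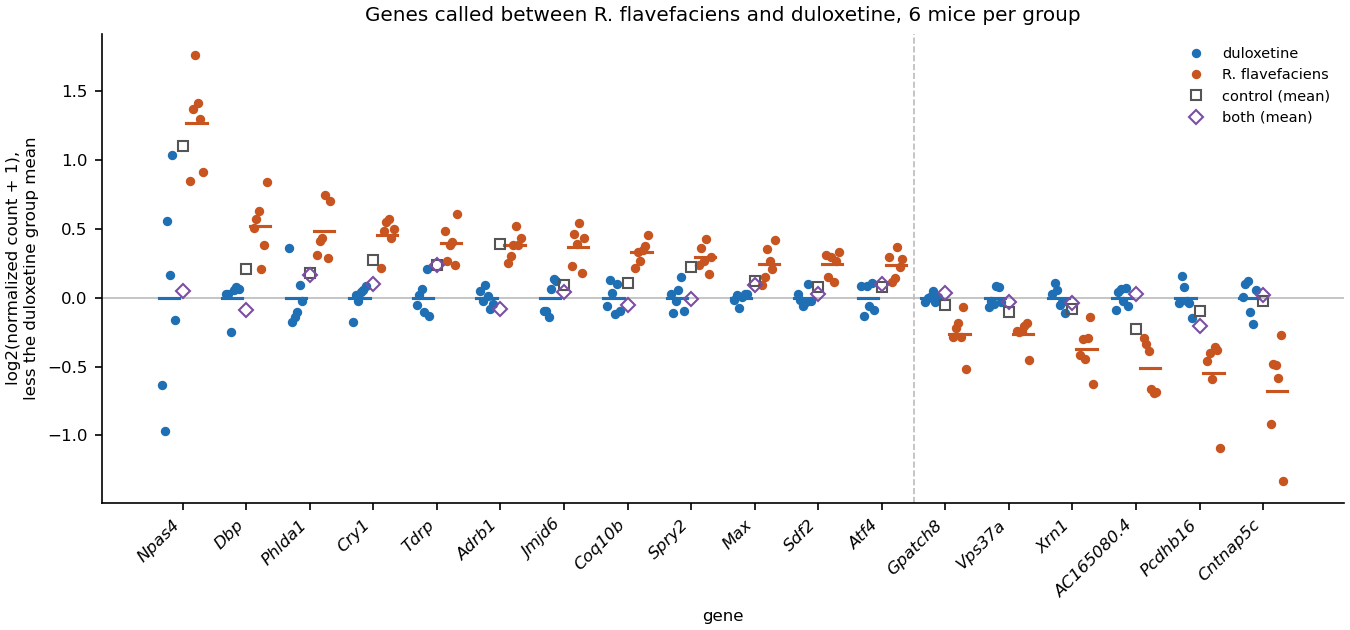
Each of the 18 called genes by mouse, as log2(normalized count + 1) less the mean of the duloxetine group. Filled points are the 6 duloxetine and 6 R. flavefaciens mice, short lines their means, open squares the control mean and open diamonds the mean of mice given both. The groups overlap for Npas4 and Phlda1 alone.

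The count of 18 depended on single mice and on the fit. Among the *R. flavefaciens* mice, it was 0 without 8_4 (limma, smallest adjusted p 0.0505, 2239 genes at an unadjusted p under 0.05), 2 without 9_3, 5 without 9_1, 25 without 7_2, 60 without 8_3 and 68 without 9_2. Among the duloxetine mice, it was 0 without 5_4 (limma, smallest adjusted p 0.0621, 1878 genes unadjusted), 1 without 5_3 or 6_1, 4 without 5_1 or 6_3 and 16 without 6_2. Leaving out a single control gave 5 to 12 genes, and a single mouse of the combined group 6 to 23. It was 0 in limma with the 12 mice alone (smallest adjusted p 0.0507, 1889 genes unadjusted), 9 in edgeR and 201 in DESeq2 on the recovered reads. The 18 genes kept their direction and an unadjusted p under 0.05 in each of these fits. The fits reuse the mice on which the genes were picked, so that is no separate evidence. With the mice rescaled to a common 75th percentile 9 genes were higher and 13 lower, and after quantile normalization 15 and 14, against 12 and 6 here.

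*Cry1*, a circadian gene, had the smallest p-value of the 18, and *Dbp*, another, followed after 3 of the lower genes. *Cry1* (ENSMUSG00000020038.10, chr10:85131700-85185064 of GRCm38, minus strand), which encodes a repressor of CLOCK and BMAL1, had between 240.5 and 288 normalized counts in the duloxetine mice (median 278) and between 316 and 405 in the *R. flavefaciens* mice (median 382). Every *R. flavefaciens* mouse lay above every duloxetine mouse, with a log2 fold change of 0.46 (SE 0.073, adjusted p = 0.0158, limma), where SE is the standard error, that is, 1.37-fold. The exact permutation test for this gene gave p = 0.00216 (two-sided), the smallest that 6 against 6 mice allow. Over all genes, 87 were separated upward and 63 downward in the same way. Exact p-values of called genes are no separate evidence, because these genes were picked on the same mice. *Dbp* (ENSMUSG00000059824.12, chr7:45705088-45710203, plus strand), a transcription factor driven by the clock, had between 482 and 606 normalized counts in the duloxetine mice (median 589.9) and between 664 and 1029.8 in the *R. flavefaciens* mice (median 834). Again the groups did not overlap, with a log2 fold change of 0.52 (SE 0.098, adjusted p = 0.0356, limma), and exons of *Sphk2* on the other strand share part of its sequence.

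Of the 18 clock genes, both of these were called, against 0.12 percent of all genes. At an unadjusted p under 0.05, 8 were higher and 1 lower, against 7.88 and 8.47 percent of all genes. The median log2 fold change was 0.14. *Tef*, a relative of *Dbp*, had 0.17 (adjusted p = 0.11), *Bhlhe41* 0.25 (adjusted p = 0.116), the period gene *Per1* 0.32 (adjusted p = 0.143), *Cry2* 0.15 (adjusted p = 0.148), *Ciart* 0.42 (adjusted p = 0.171) and *Nr1d2*, a nuclear receptor of the clock, 0.13 (adjusted p = 0.247), none of which passed limma's threshold. *Clock*, the activator of the loop, was the 1 member lower at an unadjusted p under 0.05, at -0.22 (adjusted p = 0.216), among 6 with a negative fold change. Without mice 8_4 and 9_3 the median of the list was 0.15. Of its members 8 were then higher and 0 lower, against 4.79 and 5.59 percent of all genes.

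Sequence in front of the called genes is shown because several of them are textbook targets of the clock and of cAMP signaling. RefSeq windows from 250 bases before to 50 bases after the start (GRCm38.p6) were found for 10 of the 12 higher and 2 of the 6 lower genes. The letters searched, on both strands, were CACGTG (the E-box bound by CLOCK and BMAL1), TTATGTAA (a D-box, bound by DBP), TGACG (the core of the cAMP response element), TGACGTCA (the full element, which contains that core) and the CArG box. Capitals below mark any of them.
Cry1, chr10:85185005-85185304, minus strand: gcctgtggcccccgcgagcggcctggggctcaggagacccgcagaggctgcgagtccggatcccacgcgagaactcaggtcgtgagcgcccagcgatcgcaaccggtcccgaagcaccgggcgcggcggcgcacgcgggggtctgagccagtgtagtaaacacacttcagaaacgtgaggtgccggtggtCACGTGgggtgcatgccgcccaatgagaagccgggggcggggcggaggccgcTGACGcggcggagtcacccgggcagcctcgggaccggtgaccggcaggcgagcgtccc
Npas4, chr19:4989922-4990221, minus strand: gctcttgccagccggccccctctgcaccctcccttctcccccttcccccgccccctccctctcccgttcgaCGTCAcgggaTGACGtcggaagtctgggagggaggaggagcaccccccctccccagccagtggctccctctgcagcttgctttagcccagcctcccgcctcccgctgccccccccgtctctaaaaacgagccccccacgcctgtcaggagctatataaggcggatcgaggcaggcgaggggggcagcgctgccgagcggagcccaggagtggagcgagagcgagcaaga
Adrb1, chr19:56721867-56722166, plus strand: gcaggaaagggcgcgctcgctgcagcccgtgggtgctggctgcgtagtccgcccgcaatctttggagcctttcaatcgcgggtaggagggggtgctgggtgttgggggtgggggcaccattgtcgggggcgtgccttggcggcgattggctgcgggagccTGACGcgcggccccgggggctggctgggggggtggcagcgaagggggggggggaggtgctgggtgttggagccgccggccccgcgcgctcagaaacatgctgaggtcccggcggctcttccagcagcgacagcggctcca
*Cry1* held the E-box and the core of the cAMP element, and *Npas4* and *Adrb1* the core without the full element. TGACG stood in the windows of 6 of the 10 higher genes (*Cry1*, *Coq10b*, *Adrb1*, *Atf4*, *Sdf2* and *Npas4*), in neither lower gene with a window, and in 23.0 percent of all 27025 genes with a window. CACGTG stood in front of *Cry1*, *Coq10b* and *Max*, against 8.09 percent of all genes, and the D-box in front of *Coq10b*, against 1.11 percent. No window of the called genes held TGACGTCA or a CArG box, found in 2.03 and 1.81 percent of all genes. These matches describe letters only, and binding was not measured.

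Immediate early genes, the first transcripts that neurons make after synaptic input, had the largest median fold change of the lists other than cell type markers. *Npas4* (ENSMUSG00000045903.8, chr19:4984355-4989971, minus strand), an activity-dependent transcription factor of neurons, had between 49.0 and 199.6 normalized counts in the duloxetine mice (median 97.8) and between 175 and 331 in the *R. flavefaciens* mice (median 246). The groups overlapped, since 1 duloxetine mouse reached the range of the *R. flavefaciens* mice, and the log2 fold change was 1.27 (SE 0.27, adjusted p = 0.0476, limma), or 2.41-fold. Its exact permutation p was 0.00649 (two-sided, n = 6 per group). No other member passed in limma, whereas DESeq2 on the 12 mice called 8 of the 20 members and 72 of all 14974 genes. The DESeq2 counts of lists further below come from the fit of all 4 groups, with 201 genes called, and are not alike. At an unadjusted p under 0.05 in limma, 11 of the 20 immediate early genes were higher and 0 lower. Over all genes the shares were 7.88 and 8.47 percent. The median log2 fold change of the list was 0.34.

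The member with the next smallest p-value was *Junb*, an AP-1 subunit, which had between 643 and 996 normalized counts in the duloxetine mice (median 896) and between 1028 and 1438 in the *R. flavefaciens* mice (median 1353). Its groups did not overlap, with a log2 fold change of 0.57 (SE 0.15, adjusted p = 0.0972, limma). *Fos*, the other main AP-1 gene, had between 254 and 403 normalized counts in the duloxetine mice (median 302) and between 382 and 714 in the *R. flavefaciens* mice (median 548), with a log2 fold change of 0.74 (adjusted p = 0.123). *Arc*, whose protein acts at the postsynapse, showed a mean of 2539 ± 477 normalized counts with duloxetine and 5094 ± 2379 with *R. flavefaciens* (SD, n = 6 each), a log2 fold change of 0.90 (adjusted p = 0.147). The orphan receptor gene *Nr4a1* stood at 0.68 (adjusted p = 0.101). The zinc-finger genes *Egr1*, *Egr2* and *Egr4* stood at 0.47 (adjusted p = 0.195), 0.78 (adjusted p = 0.187) and 0.52 (adjusted p = 0.134), and *Ier2*, *Ier5* and the phosphatase gene *Dusp1* at 0.62, 0.24 and 0.44. For *Junb*, *Ier2*, *Egr2* and *Egr4* every *R. flavefaciens* mouse was above every duloxetine mouse, 4 of 20 members against 0.581 percent of all genes. Without mice 8_4 and 9_3 the list still had 11 members higher at an unadjusted p under 0.05, against 4.79 percent of all genes. Its median was then 0.35. As a mean log2 deviation over the 20 genes, the list ran from -0.42 to 0.05 in the duloxetine mice and from -0.05 to 0.58 in the *R. flavefaciens* mice, and these ranges overlap.

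Against control, the immediate early genes lay further off with duloxetine than with the bacterium. The fold changes against control share the 6 control mice and are given as values, side by side. The median of the list against control was -0.31 with duloxetine, 0.04 with *R. flavefaciens* and -0.44 with both. For *Npas4* the log2 fold changes were -1.11 with duloxetine, 0.16 with *R. flavefaciens* and -1.06 with both. For *Fos* they were -0.66 with duloxetine, 0.08 with *R. flavefaciens* and -0.58 with both. *Cry1* lay on both sides of control, at -0.28 with duloxetine, 0.18 with *R. flavefaciens* and -0.18 with both. *Dbp* did the same, at -0.21 with duloxetine, 0.32 with *R. flavefaciens* and -0.29 with both.

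**Figure D2:**
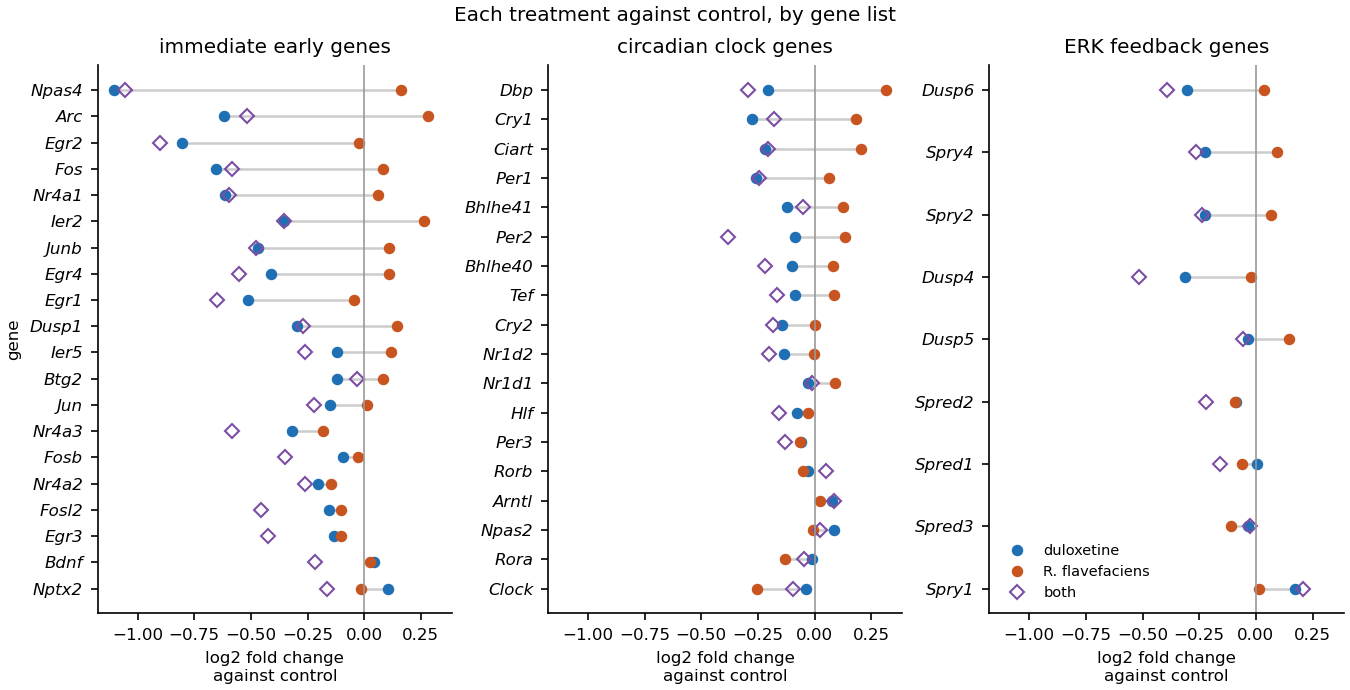
Log2 fold change against control for each member of the immediate early, clock and ERK feedback lists. Blue points are duloxetine, orange points R. flavefaciens and open diamonds both treatments, and a gray line joins the arms that were compared. Most immediate early genes show the blue point and the diamond left of 0 and the orange point near 0.

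Genes that feed back on ERK signaling included *Spry2* (chr14:105891947-105896819, minus strand), an inhibitor of receptor tyrosine kinase signaling. It had between 710.2 and 852 normalized counts in the duloxetine mice (median 768) and between 863 and 1030.4 in the *R. flavefaciens* mice (median 933), without overlap, and a log2 fold change of 0.29 (SE 0.059, adjusted p = 0.0453, limma). *Spry4* and the ERK phosphatase gene *Dusp6* had log2 fold changes of 0.32 (adjusted p = 0.189) and 0.34 (adjusted p = 0.252). In this list 3 of 9 members were higher and none lower at an unadjusted p under 0.05, against 7.88 and 8.47 percent of all genes. The median was 0.18, with 5 positive and 4 negative fold changes. *Phlda1* (chr10:111506286-111508645, plus strand), a growth-factor-induced gene, had between 179 and 261 normalized counts in the duloxetine mice (median 194) and between 249 and 342 in the *R. flavefaciens* mice (median 273). Its groups overlapped narrowly, with a log2 fold change of 0.48 (SE 0.091, adjusted p = 0.0356, limma) and an exact permutation p of 0.00649, and exons of the long noncoding gene *Gm28592* lie opposite its own.

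*Adrb1*, the beta-1 adrenergic receptor gene (ENSMUSG00000035283.4, chr19:56722372-56724862, plus strand), is a receptor for the norepinephrine whose reuptake duloxetine blocks. It had between 470.4 and 533 normalized counts in the duloxetine mice (median 497) and between 595 and 716 in the *R. flavefaciens* mice (median 652). No mouse crossed over, with a log2 fold change of 0.38 (SE 0.078, adjusted p = 0.0453, limma). Against control the gene stood at -0.39 with duloxetine, -0.01 with *R. flavefaciens* and -0.47 with both, the value with *R. flavefaciens* being the one near 0. The study's DESeq2 test of these libraries called *Adrb1* alone for duloxetine against control, so its call here is no independent evidence. Of the 8 adrenergic receptors tested, *Adra2c* had 0.34 (adjusted p = 0.114) and *Adra1a* -0.58 (adjusted p = 0.134), and the median of the list was 0.01. Among 11 serotonin receptors none was called. At an unadjusted p under 0.05, 0 were higher and 2 were lower (7.88 and 8.47 percent of all genes). Those were *Htr1f*, with -0.55 (adjusted p = 0.112), and *Htr5a*, with -0.17 (adjusted p = 0.259). For the 3 dopamine receptors and the 6 genes of monoamine transport and breakdown the count was 0 in either direction.

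*Atf4* (chr15:80255184-80257540, plus strand), the transcription factor of the integrated stress response, had between 1103 and 1305 normalized counts in the duloxetine mice (median 1224) and between 1314 and 1566 in the *R. flavefaciens* mice (median 1445), with no overlap and a log2 fold change of 0.24 (SE 0.049, adjusted p = 0.0453, limma). Of 17 genes of that response, 3 were higher and 0 lower at an unadjusted p under 0.05 (7.88 and 8.47 percent of all genes). Beside *Atf4* these were *Slc3a2*, the heavy chain of amino acid transporters, with 0.15 (adjusted p = 0.131), and *Atf5*, with 0.28 (adjusted p = 0.216). The median of the list was 0.12. *Sdf2*, which encodes a chaperone-associated protein of the endoplasmic reticulum, had between 406 and 455 normalized counts in the duloxetine mice (median 418) and between 459 and 532 in the *R. flavefaciens* mice (median 515), with no overlap and a log2 fold change of 0.25 (SE 0.051, adjusted p = 0.0476, limma). Heat shock genes and mitochondrial chaperones had no called member. Of these, 8 of 27 were higher at an unadjusted p under 0.05 (7.88 percent of all genes). They included *Dnajb1*, at 0.43 (adjusted p = 0.0688), the mitochondrial co-chaperonin gene *Hspe1*, at 0.19 (adjusted p = 0.115), *Hspa1b*, at 0.56 (adjusted p = 0.203), and *Hspb1*, at 0.52 (adjusted p = 0.219).

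The other higher genes had diverse roles. *Coq10b*, needed for the function of coenzyme Q in respiration, had between 291 and 346 normalized counts in the duloxetine mice (median 313) and between 367 and 434 in the *R. flavefaciens* mice (median 399), with a log2 fold change of 0.33 (SE 0.065, adjusted p = 0.0412, limma). *Max*, the partner of MYC, had between 514 and 552 normalized counts in the duloxetine mice (median 547) and between 576 and 724 in the *R. flavefaciens* mice (median 638), with a log2 fold change of 0.25 (SE 0.049, adjusted p = 0.0412, limma). Neither of these groups overlapped. *Jmjd6*, a dioxygenase that acts on RNA-processing proteins, had between 236 and 285 normalized counts in the duloxetine mice (median 257) and between 293 and 378 in the *R. flavefaciens* mice (median 344.8), with a log2 fold change of 0.37 (SE 0.073, adjusted p = 0.0412, limma). *Tdrp* had between 168 and 212 normalized counts in the duloxetine mice (median 182) and between 217 and 281 in the *R. flavefaciens* mice (median 242), with a log2 fold change of 0.40 (SE 0.083, adjusted p = 0.0476, limma). The mice of both groups were again apart for these genes. The library kit named in the methods does not mark strand, so reads of *Dbp*, *Phlda1*, *Jmjd6*, *Coq10b* and *Sdf2* cannot be told from those of neighboring genes that share exon sequence with them, while the other 7 higher genes share none.

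Among the lower genes, *Pcdhb16* (chr18:37477814-37483038, plus strand), a clustered protocadherin of the neuronal surface, had between 154 and 191 normalized counts in the duloxetine mice (median 167) and between 79.4 and 133 in the *R. flavefaciens* mice (median 126), with a log2 fold change of -0.55 (SE 0.096, adjusted p = 0.0247, limma). *Cntnap5c* (chr17:57769570-58410355, plus strand), a neurexin-like adhesion gene, had the largest fold decrease of the 6. Its values lay between 57.5 and 71.5 normalized counts in the duloxetine mice (median 67.2) and between 25.4 and 54.2 in the *R. flavefaciens* mice (median 44.9), with a log2 fold change of -0.68 (SE 0.13, adjusted p = 0.0412, limma). Both genes belong to families of similar sequence, how reads with several matches were counted is not given in the sources used here, and their counts are uncertain to that extent. For both genes all *R. flavefaciens* mice were below all duloxetine mice.

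*Xrn1* (chr9:95954760-96057803, plus strand), the main cytoplasmic exoribonuclease, had between 594 and 692 normalized counts in the duloxetine mice (median 642) and between 415 and 582 in the *R. flavefaciens* mice (median 501), with a log2 fold change of -0.37 (SE 0.069, adjusted p = 0.0356, limma). *Vps37a*, a subunit of the ESCRT-I sorting complex, had between 987 and 1099 normalized counts in the duloxetine mice (median 1016) and between 757 and 909.9 in the *R. flavefaciens* mice (median 874), with a log2 fold change of -0.26 (SE 0.046, adjusted p = 0.0247, limma). Mouse 9_3 held the lowest value of the 12 mice for *Pcdhb16*, *Vps37a*, *Xrn1*, *Cntnap5c* and *Gpatch8*, that is, 5 of the 6 lower genes. *Gpatch8* had between 1019 and 1078 normalized counts in the duloxetine mice (median 1041) and between 728 and 993 in the *R. flavefaciens* mice (median 874), with a log2 fold change of -0.26 (SE 0.053, adjusted p = 0.0453, limma), and *AC165080.4* had between 65.0 and 73.0 normalized counts in the duloxetine mice (median 69.9) and between 42.6 and 56.5 in the *R. flavefaciens* mice (median 48.1), with a log2 fold change of -0.51 (SE 0.10, adjusted p = 0.0453, limma). None of these 4 genes overlapped between the groups. Exons of antisense genes share sequence with *Xrn1*, and exons of *Mtmr7* with *Vps37a*.

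Against control, with the control mice shared between the arms, none of the 18 passed the threshold for *R. flavefaciens* against control, where 4 genes did (0.0267 percent), or for duloxetine against control, where 0 genes did (limma, 0 percent, with 573 genes at an unadjusted p under 0.05). For both treatments against control 15 genes passed (0.1 percent), among the 18 *Adrb1* alone, with an adjusted p of 0.00656. The 6 mice given both enter neither side of the comparison. For the 12 higher genes their mean on the log2 scale lay between those of the arms in 8 and at or below the duloxetine mean in 4, and their log2 fold change against control was negative in 11. For the 6 lower genes the log2 mean lay between the arms in 3 and at or above the duloxetine mean in 3.

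Nuclear genes of oxidative phosphorylation were on the higher side after *R. flavefaciens*, but none was called in limma. DESeq2 on the recovered reads called 3 genes in complex I, 2 in complex III and 3 in complex IV, against 201 of all 14974 genes. Limma without mouse 8_3 called 1 in complex I and 2 in complex III, against 60 of all genes. Without mouse 9_2 it called 1 in each of these, against 68. With a random block for the first label number it called 1 in complex I, against 62. The respiratory complexes pass electrons to oxygen and ATP synthase uses the resulting gradient. Of 79 nuclear subunit genes, 44 were higher and 0 lower at an unadjusted p under 0.05 (7.88 and 8.47 percent of all genes), and the median log2 fold change was 0.15. By complex, 20 of 36 complex I genes, 1 of 4 in complex II, 5 of 9 in complex III, 10 of 12 in complex IV and 8 of 18 in ATP synthase were higher by that rule. *Ndufa1*, of complex I, had at most 406.5 normalized counts in the duloxetine mice (lowest 332, median 383) and at least 407.0 in the *R. flavefaciens* mice (median 458, highest 583). Its groups thus touched without overlap, with a log2 fold change of 0.31 (SE 0.074, adjusted p = 0.0855, limma). *Uqcrq* of complex III had 0.26 (adjusted p = 0.0855), and *Cox7c*, *Cox8a* and *Cox6a1* of complex IV had 0.23 (adjusted p = 0.116), 0.22 (adjusted p = 0.116) and 0.27 (adjusted p = 0.122). *Sdhd* stood at 0.13 (adjusted p = 0.159) and the ATP synthase inhibitor *Atpif1* at 0.20 (adjusted p = 0.134). Mouse 9_3 weighed on these counts. Its complex IV level of 0.47 compares with 0.01 to 0.25 in the other 5 *R. flavefaciens* mice. Without mouse 9_3 23 of 79 genes were higher, with a median of 0.09, and without 8_4 as well 21, with 0.09.

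Messages of the mitochondrial genome were not on the higher side. None of the 13 was called in limma and 2 in DESeq2, which called 201 of all 14974 genes. In limma 0 were higher and 4 lower at an unadjusted p under 0.05 (7.88 and 8.47 percent of all genes), with a median of -0.08. *mt-Nd5*, a complex I subunit, had between 40857 and 52869 normalized counts in the duloxetine mice (median 44112) and between 34410 and 40647 in the *R. flavefaciens* mice (median 38540), and every *R. flavefaciens* mouse was below every duloxetine mouse. Its log2 fold change was -0.26 (adjusted p = 0.128), and that of *mt-Nd4l* was -0.28 (adjusted p = 0.121). Without mouse 9_3, 7 of the 13 were lower, with a median of -0.18. Against control the median of the list was 0.25 with duloxetine, 0.14 with *R. flavefaciens* and 0.36 with both.

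Genes of protein synthesis and breakdown were also on the higher side with all mice, again with no member called in limma. DESeq2 called 1 mitochondrial ribosomal gene and 3 of the proteasome, against 201 of all 14974 genes. For the ribosomal genes the count of higher members was below the share of all genes without mice 8_4 and 9_3. Of 82 cytoplasmic ribosomal protein genes 21 were higher and 0 lower at an unadjusted p under 0.05, with a median of 0.14. Over all genes the shares were 7.88 and 8.47 percent. Of 77 mitochondrial ribosomal protein genes the counts were 17 and 0, with a median of 0.09. *Rps3* had 0.21 (adjusted p = 0.166) and *Mrpl45* 0.23 (adjusted p = 0.0855). Without mice 8_4 and 9_3 the count over the 159 ribosomal genes went from 38 to 4, which is under the 4.79 percent of all genes in that fit, and without 9_3 alone to 10. Without duloxetine mouse 5_4 it was 15. For the proteasome, the protease of ubiquitin-tagged proteins, 16 of 32 subunit genes were higher and 0 lower, with a median of 0.11, and 8 were higher without both mice. Its ATPase subunit *Psmc4* stood at 0.19 (adjusted p = 0.0855).

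Glutamate receptor and ion channel genes lay on the lower side with all mice, with no member called in limma, and the counts rested on few mice. DESeq2 called 1 in each of the ionotropic receptors and the sodium, calcium and HCN channels, against 201 of all 14974 genes. Of 24 glutamate receptor genes 8 were lower and 1 higher at an unadjusted p under 0.05, with a median log2 fold change of -0.12. Over all genes 8.47 percent were lower and 7.88 percent higher. The NMDA receptor subunit gene *Grin2b* had between 10920 and 13817 normalized counts in the duloxetine mice (median 12223) and between 6569 and 12255 in the *R. flavefaciens* mice (median 9833), ranges that overlap, and a log2 fold change of -0.38 (SE 0.11, adjusted p = 0.112, limma). *Grin2a* stood at -0.33 (adjusted p = 0.254), the kainate receptor gene *Grik3* at -0.33 (adjusted p = 0.16) and the metabotropic *Grm3* at -0.27 (adjusted p = 0.153), whereas *Grik5* was on the higher side at 0.13 (adjusted p = 0.22). Of 56 voltage-gated channel genes 12 were lower and 1 higher, with a median of -0.10. *Cacna1e*, a calcium channel, had -0.37 (adjusted p = 0.11) and on the higher side the potassium channel gene *Kcnh3* 0.16 (adjusted p = 0.149). *Pclo*, the active-zone scaffold piccolo, had between 7005 and 8726 normalized counts in the duloxetine mice (median 7581) and between 3299.9 and 6919 in the *R. flavefaciens* mice (median 6027). Its groups did not overlap, with a log2 fold change of -0.47 (SE 0.12, adjusted p = 0.0855, limma). *Gabrb1*, a GABA-A receptor subunit, stood at -0.33 (adjusted p = 0.0759), and the postsynaptic adhesion gene *Nlgn3*, again on the higher side, at 0.12 (adjusted p = 0.171). The 8 lower glutamate receptor genes became 4 without mouse 9_3 and 5 without 8_4 or without duloxetine mouse 5_4. The 12 lower channel genes became 5 without 9_3, 9 without 8_4 and 8 without 5_4. Without mice 8_4 and 9_3 the glutamate receptors had 2 lower of 24 with a median of -0.04, and the channels 2 lower and 2 higher with a median of 0.01. In that fit 5.59 percent of all genes were lower, a share that the channels did not reach. Besides *Adrb1*, 9 genes that the study singled out in these libraries were followed, which makes them no independent evidence. None was called, and they had log2 fold changes from -0.38 to -0.06, among them *Dync1h1* at -0.24 (adjusted p = 0.132) and *Dpysl2* at -0.18 (adjusted p = 0.112).

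Clustered protocadherins, which give neurons a surface identity, had 1 called member, *Pcdhb16*, against 0.12 percent of all genes. At an unadjusted p under 0.05, 9 of 54 were lower and 0 higher (8.47 and 7.88 percent of all genes). The median was -0.12. *Pcdha11* had -0.68 (adjusted p = 0.119) and *Pcdhb4*, whose groups did not overlap, -0.32 (adjusted p = 0.238). Mice 8_4 and 9_3 had the lowest levels of the list, and without them 2 members were lower with a median of -0.06, a count under the 5.59 percent of all genes. Of 28 other cadherins and protocadherins 7 were lower, *Pcdh15* with the smallest p-value, at -0.29 (adjusted p = 0.129), and 1 without both mice.

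**Figure D3:**
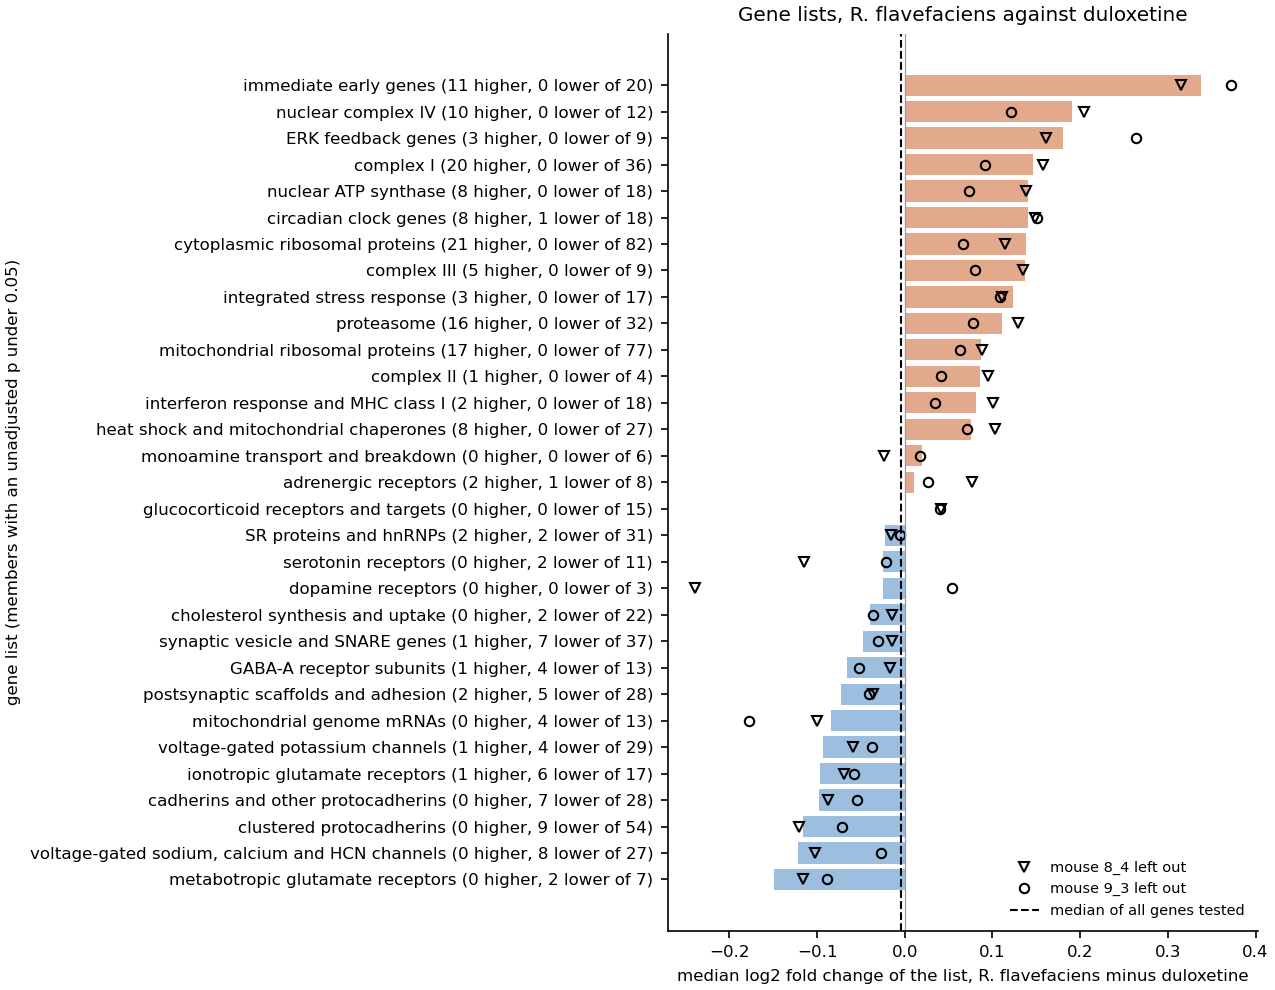
Median log2 fold change, R. flavefaciens minus duloxetine, of each gene list (bars). The numbers of members higher and lower at an unadjusted p under 0.05 stand beside the names, open triangles and circles give the median without mouse 8_4 or 9_3, and the dashed line is the median of all genes tested. The medians of complex IV, ribosomal and channel lists move toward 0 without mouse 9_3, and that of the immediate early genes does not.

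For several other lists few members had a small p-value. Glucocorticoid receptors and targets had 0 of 15 members at an unadjusted p under 0.05, with a median of 0.0012, and no called gene. For cholesterol synthesis and uptake the counts were 0 higher and 2 lower of 22, for SR proteins and hnRNPs 2 and 2 of 31, and for interferon response and MHC class I 2 and 0 of 18. Further synaptic lists had more lower members than the 8.47 percent of all genes. Vesicle and SNARE genes had 1 higher and 7 lower of 37, postsynaptic scaffolds 2 and 5 of 28, and GABA-A receptor subunits 1 and 4 of 13. Mouse 9_3 had the lowest level of these 3 lists among the 12 mice, and without it and 8_4 the lower members numbered 3, 0 and 1. In the same fit interferon genes had 0 higher, the integrated stress response 2 and the chaperones 8, and the serotonin receptors 1 lower.

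Markers of other cell types and regions were read beside these lists, and their part in the results was not tested. Of 12 interneuron markers (peptides and *Pvalb*), none was called and the median was 0.21. At an unadjusted p under 0.05, 7 were higher and 0 lower (7.88 and 8.47 percent of all genes). *Sst*, the somatostatin gene, had between 1889 and 2222 normalized counts in the duloxetine mice (median 1946) and between 2224 and 3181 in the *R. flavefaciens* mice (median 2356), without overlap and with a log2 fold change of 0.31 (SE 0.087, adjusted p = 0.112, limma). *Pvalb* stood at 0.30 (adjusted p = 0.251), *Vip* at 0.17 (adjusted p = 0.279) and *Cck*, the most abundant of the list, at 0.18 (adjusted p = 0.298). Of the 12 fold changes 9 were positive and 3 negative. Without both mice 1 member was higher. Of 9 general markers of inhibitory neurons 4 were higher and 1 lower, and 7 fold changes were positive and 2 negative. *Dlx5*, a homeobox gene of this lineage, had between 32.4 and 38.2 normalized counts in duloxetine mice. It had between 47.4 and 94.9 in *R. flavefaciens* mice, at 0.70 (adjusted p = 0.0579, limma). *Gad1*, the most abundant, overlapped, with 3628 to 4152 in the duloxetine mice and 3740 to 4210 in the *R. flavefaciens* mice. Without mouse 8_4, which had the highest level of this list, 3 were higher and 1 lower, and without both mice 2 and 0. Of 11 deep-layer markers 0 were higher and 2 lower, with a median of -0.23, and 0 were lower without both mice, with a median of -0.25.

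The 12 striatum markers, 2 of them higher and 0 lower at an unadjusted p under 0.05, summed to 4565, 5546, 10180, 4588, 4857 and 4407 normalized counts in *R. flavefaciens* mice 7_2, 8_3, 8_4, 9_1, 9_2 and 9_3. The duloxetine mice 5_1, 5_3, 5_4, 6_1, 6_2 and 6_3 had 4816, 4867, 5007, 5021, 4945 and 4844. *Foxp1*, which cortex also expresses, was the most abundant, and none of the 12 was at 0 in any mouse. The median of the list was 0.29, and 0.05 without mouse 8_4, with 0 higher and 1 lower. The opioid peptide gene *Penk*, held by this list and that of the interneurons, had the smallest p-value, with a log2 fold change of 0.69 (adjusted p = 0.216) and 1071 normalized counts in mouse 8_4. Choroid plexus and ependyma markers (6 tested) summed to 3682 in mouse 8_4 and to 2148 to 3084 in the other 11, *Enpp2* being the most abundant and *Ttr* at 0 in mouse 7_2. Myelin markers varied widely within each group, from 17090 to 51600 with duloxetine and from 13750 to 51280 with *R. flavefaciens*, with *Mbp* the most abundant of them. Blood markers (5 tested, led by *Hbb-bs*) had a median log2 fold change of 0.48 with 0 members at an unadjusted p under 0.05. For microglia and myelin the count was also 0, and for astrocytes 1 of 10 was higher, and 0 without mouse 8_4.

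**Figure D4:**
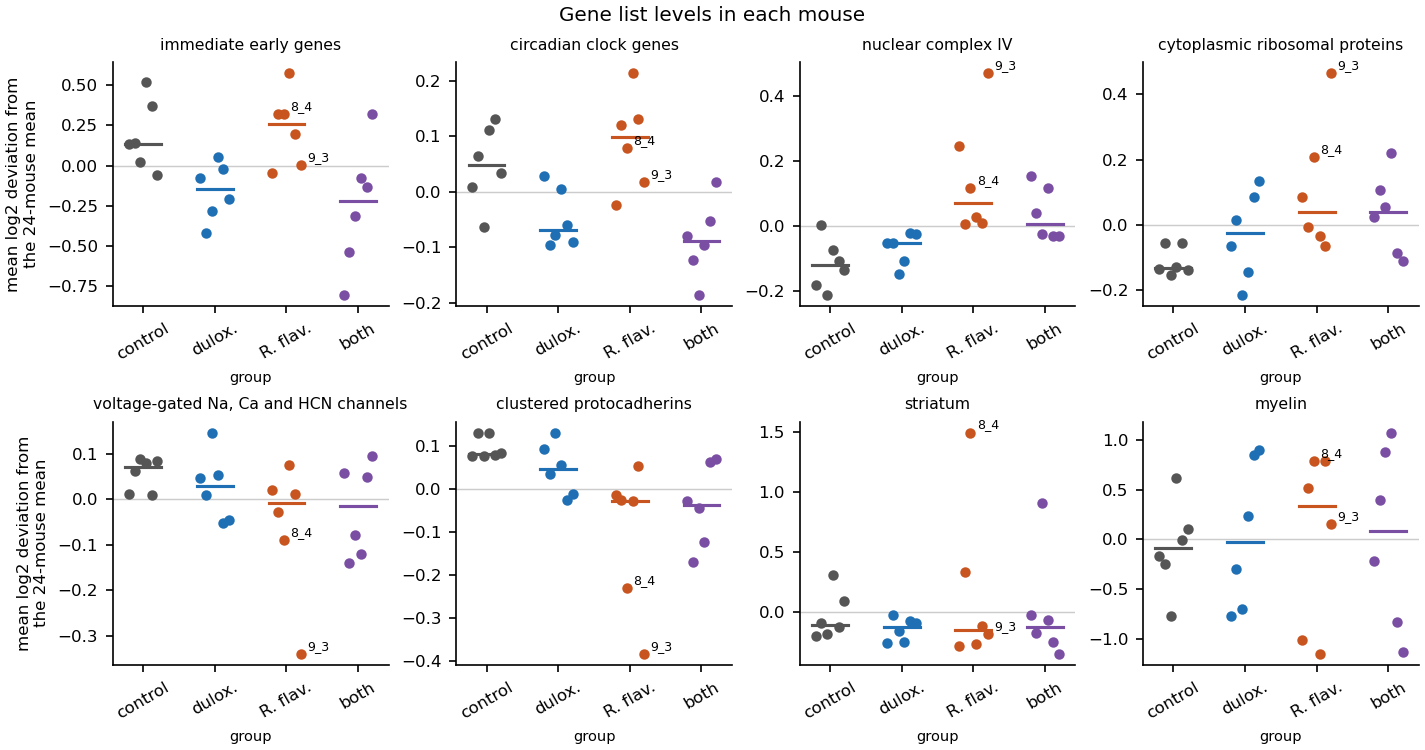
Mean log2 deviation from the 24-mouse mean for 8 gene lists, with 1 point per mouse, lines at group medians and mice 8_4 and 9_3 labelled. Mouse 8_4 is highest for striatum markers (1.49), mouse 9_3 is highest for complex IV (0.47) and lowest for the channels (-0.34), and immediate early and clock genes are low in most mice given duloxetine.

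Fold changes also ran with transcript length, taken as the median over the annotated transcripts of a gene. Across 14958 genes of the same 12 libraries, Spearman's rho between log2 fold change and length was -0.265, and 0.27 with GC content, as a description only, since genes are not independent. With the genes cut into 5 equal classes from short to long, the median log2 fold change went from 0.0435 through 0.0288, -7.04e-05 and -0.0301 to -0.0646. Against control rho with length was -0.301 for *R. flavefaciens* and -0.0907 for duloxetine. With a smooth length trend taken off in each mouse, 31 of the 79 nuclear OXPHOS genes were higher at an unadjusted p under 0.05 (7.01 percent of all genes in that fit), and the immediate early genes had 12 of 20. The ribosomal genes went from 38 to 21 higher of 159, with a median of 0.08. The channels went from 12 to 9 lower of 56, with a median of -0.05, and the clustered protocadherins from 9 to 4 lower of 54, where 7.82 percent of all genes were lower. Among the 22 genes then called were 14 of the 18.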

How the data were processed

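Total RNA of mPFC punches from 24 mice (6 per group) was made into poly(A)-selected libraries and sequenced by the authors. The submitters' processing notes name TopHat2 2.1.0, Bowtie2 2.2.6, DESeq2 1.18.1 and the build mm9, whereas the methods name GRCm38, and the positions of 14285 of the 15456 genes in the table equal those of GENCODE vM21 (GRCm38). The counting program and strand setting are not given in the sources used here. The deposited values are a signal, namely gene counts that the authors divided by a DESeq2 size factor per library. Dividing by each mouse's smallest step gave whole reads for 99.997 percent of the nonzero values (tolerance 0.0051), and these recovered reads give the depth (12811413 to 14938209 in the 12 mice compared).

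Genes averaging 10 or more normalized counts over the 24 mice (14974) were fitted on log2(normalized count + 1) with limma 3.58.1 (trended prior, R 4.3.3), all 4 groups sharing 1 estimate of the spread, and p-values were adjusted by Benjamini-Hochberg at 0.05. Each mouse was taken as 1 replicate. Named were all genes past the threshold, the member of each list with the smallest p-value, the most abundant marker of each cell type and genes that the study singles out. Further list members were named after their values were seen. The comparison, its members and the lists were chosen with earlier results of these data known. Lists were described by counts and medians with no test. Alternatives were other scalings, filters and pseudocounts, a block for the first label number, removal of a length trend by loess, edgeR 4.0.16 and DESeq2 1.42.0 on recovered reads, and leaving out mice. The fits were tested on simulated data. Promoter windows came from RefSeq (GRCm38.p6).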

Additional observations from a re-analysis of the deposited data

Results flagged for a closer look

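In 132 groups of 6 values (the called genes and the list levels, by group), the highest or lowest mouse was tested by Dixon's ratio, and 9 stood apart, where chance marks about 1 in 20. For *Vps37a*, *R. flavefaciens* mouse 9_3 had 757.1 normalized counts, with a median of 874.3 in the other 5. For *Dbp*, duloxetine mouse 5_4 had 481.7 normalized counts, with a median of 594.9 in the others. Mouse 8_4 accounted for 3 of the 9, with mean log2 deviations of 1.491 for striatum markers (median of the others -0.1811), 0.3665 for inhibitory neurons (0.0658) and 0.2954 for astrocytes (-0.0277). Heat shock and mitochondrial chaperones stood at 0.2671 in *R. flavefaciens* mouse 9_1, against 0.0861 in the others. In the duloxetine group, adrenergic receptors were at -0.1417 in mouse 6_2 (0.0132 in the others), blood markers at 1.061 in mouse 6_3 (-0.5699) and olfactory bulb markers at 0.7343 in mouse 5_3 (-0.2931).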

How the results depend on the processing

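The number of called genes, 18, was 0 with only the 12 mice of the comparison in limma (1889 genes unadjusted), 29 after quantile normalization, 62 with a random block for the first label number (estimated correlation -0.04509), 201 in DESeq2, 72 in DESeq2 on the 12 mice, 9 in edgeR, 2 in edgeR on the 12 mice and 115 at an adjusted p under 0.1. Leaving out single mice gave 0 to 68 genes. Of the controls, 5 genes were called without 1_1 or 2_2, 6 without 3_3, 10 without 2_1 and 11 without 2_3, and of the mice given both, 6 without 11_4 and 11 without 11_3. Without 8_4 and 9_3 together, an alternative chosen after seeing the data, it was 0 (limma, smallest adjusted p 0.07802, 1555 genes unadjusted). Other pseudocounts, filters, rescaling by the 75th percentile or summed count and removal of the length trend gave 16 to 22. The 18 genes kept their direction and an unadjusted p under 0.05 in all 38 fits, which reuse the mice they were picked on. *Cry1* was called in 34 of the fits, *Pcdhb16* in 30, *Npas4* in 14 and *Sdf2* in 11. The medians of the lists moved beyond the spread between mice in 3 of 1786 cases, with mice left out: metabotropic glutamate receptors to -0.03 and sodium, calcium and HCN channels to -0.0026 without both mice, and serotonin receptors to -0.11 without 8_4. That spread was taken with all mice, those later left out included, so few medians could pass it. The count therefore does not measure how stable the lists were. The striatum markers, whose median fell without 8_4, are not among the 3. The causes were not tested. No paired analysis was possible because no first label number is shared between the groups and the second recurs within a group (5_1 and 6_1), so that it picks out no pair. Depth limits low genes most, such as *Cntnap5c* with 25.4 to 71.5 normalized counts.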
